A study of Homo sapiens with 9 samples.

Results

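The genes described here are the subunits of the transcription factor AP-1 and their close relatives in MCF-10A cells: FOS, FOSB, FOSL1 and FOSL2, the JUN genes JUN, JUNB and JUND, the stress factor ATF3, and MAFF and BATF3. They were chosen by name, and their identifiers were matched without the version number to GENCODE symbols in the gene counts. All 10 were found among the 60609 genes counted, of which 60295 had a GENCODE symbol. All 10 also passed the filter on low counts and were tested. MCF-10A is a human mammary epithelial line that does not form tumors. The 9 libraries are 3 of the parental line (WT), 3 of a knock-in line carrying E545K in PIK3CA and 3 of a knock-in line carrying H1047R. PIK3CA encodes p110-alpha, a catalytic subunit of PI 3-kinase. E545K lies in its helical domain and H1047R in its kinase domain, and the study set out to evaluate transcription in isogenic cells with one or the other. The knock-in lines were derived earlier, and the labels do not say whether replicates are separate cultures or each line 1 clone. P-values measure the spread between these libraries only.

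Growth history differed between the genotypes. Maintenance medium (5% horse serum) held epidermal growth factor (EGF) at 20 ng/ml for WT and none (0 ng/ml) for both knock-in lines. For the last 24 h all cells were in phenol red-free medium in which EGF was 0.2 ng/ml and charcoal-stripped serum 1%. Insulin (10 µg/ml), hydrocortisone (0.5 µg/ml) and cholera toxin (100 ng/ml) were in both media of all genotypes. EGF is a classical inducer of the FOS and JUN genes, and cholera toxin raises cyclic AMP. Maintenance with or without EGF moves with the genotype in both comparisons with WT, and the 2 cannot be told apart there. E545K and H1047R cells shared the medium, but the H1047R libraries were counted in a table of their own, so that table and that genotype cannot be told apart.

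AP-1 is a dimer of leucine-zipper (bZIP) proteins. FOS proteins cannot pair with each other and bind DNA as partners of JUN proteins, whereas JUN proteins also pair among themselves, so the subunits present set which dimers can form. FOS and FOSB are immediate early genes, switched on within minutes of a growth-factor or stress signal, and FOSL1 and FOSL2 usually follow and persist longer. JUN is a strong activator, JUNB and JUND often act as weaker ones, and ATF3, of the CREB/ATF branch, pairs with JUN proteins and often represses. MAFF is a small MAF protein without a transactivation domain, and BATF3 pairs with JUN proteins and is best known from dendritic cells. RNA alone was measured here, not protein, phosphorylation or dimers.

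Libraries of H1047R stood apart from the others in depth and spread. They held 377093507 to 605972919 counts, against 95091894 to 136132315 in WT and 95533991 to 134245702 in E545K, with each mate of a read pair counted. Protein-coding genes took 77.6% to 78.1% of counts in H1047R, 85.9% to 86.0% in WT and 85.2% to 85.8% in E545K, and mitochondrial genes took 1.21% to 1.43%, 1.00% to 1.05% and 1.08% to 1.11%. The biological coefficient of variation was 0.219 within H1047R, 0.0328 within WT and 0.0285 within E545K. PIK3CA itself was at 43.9 to 47.9 CPM in WT, 37.4 to 39.1 in E545K and 41.7 to 43.9 in H1047R, and gene counts do not show the allele. Unless stated otherwise, levels are CPM, counts per 1000000 of the TMM-scaled library size. A gene was called at an edgeR adjusted p under 0.05. The basal epithelial markers KRT5, KRT14, KRT17, TP63, LAMB3, ITGB4, CDH3 and EGFR were present in all libraries, summed to 26458 to 31821 CPM. The 5 general epithelial markers summed to 1938.5 to 2026 CPM in WT against 923 to 930 for E545K and 976 to 1115 for H1047R, and of these KRT8 averaged 997, 239 and 258 CPM. The 4 hormone-receptor luminal markers summed to 34.8 to 42.5 CPM in WT, to 34.1 to 34.5 for E545K and to 56.9 to 59.7 for H1047R. Of the markers of other cell types, 4 of 6 immune, 5 of 6 fibroblast and 3 of 4 endothelial genes were under 1 CPM in every library, and the leukocyte gene PTPRC averaged 0.0332 to 0.0756 CPM per genotype. The exceptions included COL1A1 (47.4, 59.5 and 66.6 CPM in WT, E545K and H1047R), KDR (8.66, 10.7 and 22.5) and CD68 (10.9, 7.04 and 5.40), and the part of these markers in the results was not tested.

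E545K cells carried much more ATF3, FOSB and FOSL1 RNA than WT cells and less FOS and FOSL2 RNA. Of the 10 members, 6 were called higher and 3 lower in E545K against WT, and JUN was not called. Among all 26412 genes tested 36.6% were called in that comparison (17.7% higher and 18.9% lower), or 55.5% of those that averaged at least 10 CPM. With library totals as the only scaling, 7021 genes were called higher and 3606 lower, against 4665 and 4998 with TMM, and 6 members were higher and 3 lower under both. Libraries of E545K and WT did not overlap for any of the 10 members, as was so for 54.2% of genes. A change of at least 2-fold was called for 4 members (ATF3, FOSL1, FOSB and FOS), against 7.10% of all genes and 2.57% of those of at least 10 CPM. H1047R cells carried more JUN and much less JUND RNA than WT cells. In H1047R against WT 5 members were called higher and 3 lower, against a background of 55.5% of all genes (27.4% higher and 28.1% lower), and MAFF and BATF3 were not called. Only 1 member, JUND, changed at least 2-fold in that comparison, where 17.4% of genes and 7.15% of those of at least 10 CPM did, and libraries did not overlap for 8 members, against 60.1% of genes. Among genes of at least 10 CPM 73.8% were called, so 8 of 10 members called is near the background there.

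**Figure D1:**
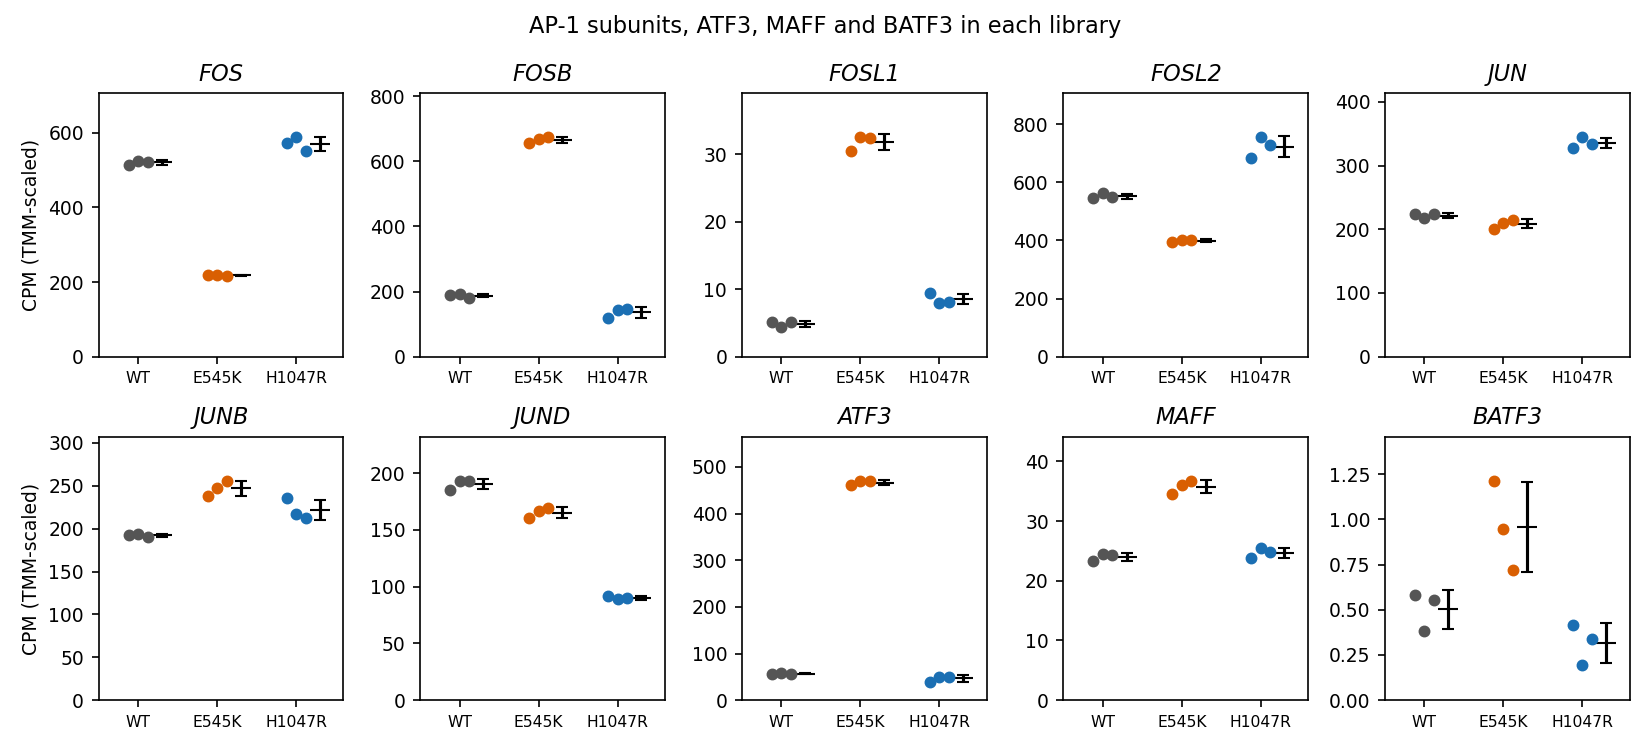
Level of each member in each of the 9 libraries, in CPM of the TMM-scaled library size on a linear axis from 0. Points are libraries (3 per genotype) and the bar beside them is the mean ± SD; ATF3, FOSB and FOSL1 stand highest in E545K, and JUN highest and JUND lowest in H1047R.

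FOS and FOSB, the rapid responders of the FOS family, moved in opposite directions in E545K. FOS (ENSG00000170345.10, chromosome 14, 75278826 to 75282230, plus strand, hg38) gave 514, 525 and 522 CPM over the WT libraries, 218, 219 and 217 over those of E545K and 572, 588 and 551 over those of H1047R. All E545K libraries lay below all others, and all H1047R libraries lay slightly above WT. In bulk RNA, fewer expressing cells and less RNA per cell cannot be told apart. In E545K against WT, FOS fell by 1.26 ± 0.04 (SE) on the log2 scale, or 2.39-fold (adjusted p = 3.88e-12). In H1047R it was 0.13 ± 0.04 above WT (adjusted p = 7.11e-03), and that call was lost when the model was fitted to WT and H1047R alone (0.10, adjusted p = 0.0588).

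FOSB (ENSG00000125740.14, chromosome 19, 45467995 to 45475179, plus strand) encodes a close relative of FOS and also yields a shortened splice form that gene counts do not resolve. In CPM, the WT libraries gave 189, 192 and 182, those of E545K 656, 668 and 674 and those of H1047R 118, 144 and 148. The groups did not overlap, with E545K far above WT and H1047R below it. The change was 1.83 ± 0.07 in E545K against WT (3.55-fold, adjusted p = 3.82e-11) and −0.46 ± 0.07 in H1047R against WT (adjusted p = 2.93e-05). H1047R replicate 1 was the lowest of the 9 libraries.

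The FOS and FOSB promoters are shown because these neighbours in function moved apart in the same cells. Each line holds the 250 bases before the RefSeq start site (GRCh38.p14) on the gene's own strand. FOS is the plus strand of chr14:75278578-75278827 and FOSB the plus strand of chr19:45467746-45467995. Capitals mark TGACG, the core of a CREB/ATF element, which was searched on both strands.

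FOS: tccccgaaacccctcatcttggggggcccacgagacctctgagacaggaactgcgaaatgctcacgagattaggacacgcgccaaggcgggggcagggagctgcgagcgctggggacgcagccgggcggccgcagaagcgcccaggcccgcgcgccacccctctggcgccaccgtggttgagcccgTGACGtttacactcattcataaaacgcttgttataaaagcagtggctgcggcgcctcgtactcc
FOSB: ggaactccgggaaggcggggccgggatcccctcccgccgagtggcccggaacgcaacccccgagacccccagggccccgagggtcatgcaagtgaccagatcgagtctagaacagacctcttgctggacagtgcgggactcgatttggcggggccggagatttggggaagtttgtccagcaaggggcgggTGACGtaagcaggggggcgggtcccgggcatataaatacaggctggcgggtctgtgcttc

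TGACG starts 64 bases before the start in FOS and 60 bases before it in FOSB, so the copy lies at nearly the same place in both. This place is not particular to them, as FOSL2 holds a copy 66 bases before its start. TGACG also stands in windows of JUN, JUNB, JUND and MAFF. The same letters stand, at any place and on either strand, in 21.2% of 34943 promoter windows of this length. The AP-1 site TGANTCA, found in 6.59% of windows, does not occur in the FOS or FOSB window. A match is a description of letters and says nothing of what was bound there.

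FOSL1 (ENSG00000175592.9, chromosome 11, 65892049 to 65900573, minus strand) encodes FRA-1, a late FOS protein linked to cell motility. The 3 WT libraries read 5.19, 4.38 and 5.08 CPM, the E545K ones 30.4, 32.5 and 32.5 and the H1047R ones 9.45, 8.0 and 8.15. Both knock-in lines lay above WT in every library, E545K far more so. FOSL1 rose by 2.70 ± 0.08 in E545K (6.50-fold, adjusted p = 3.66e-12) and by 0.80 ± 0.08 in H1047R (1.74-fold, adjusted p = 4.91e-07).

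FOSL2 (ENSG00000075426.12, chromosome 2, 28392448 to 28417317, plus strand), which encodes FRA-2, moved in the same directions as FOS. WT libraries held 546, 563 and 548 CPM, E545K libraries 393, 401 and 403 and H1047R libraries 684, 755 and 728. E545K libraries were lowest and H1047R libraries highest, without overlap. The change was −0.47 ± 0.04 in E545K (adjusted p = 3.85e-07) and 0.39 ± 0.04 in H1047R (adjusted p = 1.15e-06).

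Among the JUN genes, the activator JUN and the more slowly responding JUND parted in H1047R. JUN (ENSG00000177606.7, chromosome 1, 58780791 to 58784047, minus strand) gave 223, 217 and 224 CPM over the WT libraries, 201, 211 and 215 over those of E545K and 328, 344 and 334 over those of H1047R. H1047R stood clear of the other groups, and the E545K libraries lay just under WT. JUN rose by 0.60 ± 0.04 in H1047R against WT (1.51-fold, adjusted p = 6.36e-09). In E545K the difference of −0.09 ± 0.04 was not called (adjusted p = 0.108). It was called when WT and E545K alone were fitted (−0.08, adjusted p = 9.77e-04) or without H1047R replicate 1 (adjusted p = 0.0407) or 3 (adjusted p = 0.0376), and with library totals as the only scaling it was 0.0065 (adjusted p = 0.920).

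JUND (ENSG00000130522.6, chromosome 19, 18279694 to 18281622, minus strand) is in most cells a constitutive subunit. In CPM, the WT libraries gave 185, 193 and 193, those of E545K 160, 166 and 169 and those of H1047R 91.4, 88.7 and 89.7. The H1047R libraries lay far below the others, and E545K lay between them and WT. JUND fell by 1.08 ± 0.04 in H1047R (2.12-fold, adjusted p = 6.66e-12) and by 0.20 ± 0.04 in E545K (adjusted p = 6.04e-04, or −0.11 with library totals, adjusted p = 0.0204). The share of counts on protein-coding genes was also lower in H1047R, as given above, and its part in the fall of JUND was not tested.

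JUNB (ENSG00000171223.6, chromosome 19, 12791486 to 12793315, plus strand), often an antagonist of JUN, was higher than WT in both knock-in lines. The 3 WT libraries read 192, 194 and 191 CPM, the E545K ones 238, 247 and 256 and the H1047R ones 236, 217 and 213. Every knock-in library lay above every WT library, by 0.36 ± 0.04 on the log2 scale in the E545K line (adjusted p = 1.48e-05) and 0.21 ± 0.04 in H1047R (adjusted p = 1.15e-03). JUNB shares 259 of its 1830 exon bases (14.2%) with HOOK2 on the other strand, and strand was not used in counting. HOOK2 itself was at 75.4 to 76.2 CPM in WT, 89.1 to 93.2 in E545K and 82.7 to 90.1 in H1047R. These HOOK2 values are CPM of library totals without TMM scaling, so they are not on the scale of the JUNB values. Reads of the shared stretch cannot be assigned to either gene.

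The JUN and JUND promoters are shown because these partners of the FOS proteins moved in opposite directions in H1047R. The windows are again the 250 bases before the RefSeq start, both on the minus strand, JUN at chr1:58784048-58784297 and JUND at chr19:18281623-18281872. Capitals mark TGACG on either strand, read as CGTCA on the other one, and the 8-base CRE and AP-1-like form TGACNTCA.

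JUN: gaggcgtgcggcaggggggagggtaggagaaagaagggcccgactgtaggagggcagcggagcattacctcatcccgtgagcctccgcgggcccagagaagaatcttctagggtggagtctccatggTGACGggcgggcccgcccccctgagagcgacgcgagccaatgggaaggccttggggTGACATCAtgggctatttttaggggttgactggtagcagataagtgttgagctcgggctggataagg
JUND: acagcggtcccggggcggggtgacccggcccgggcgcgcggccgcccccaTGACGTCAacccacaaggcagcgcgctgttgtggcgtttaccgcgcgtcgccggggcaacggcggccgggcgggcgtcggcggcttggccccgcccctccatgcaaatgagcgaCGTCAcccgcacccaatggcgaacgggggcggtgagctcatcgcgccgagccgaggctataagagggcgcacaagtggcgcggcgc

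JUN holds TGACATCA 67 bases before its start and a TGACG at 123 bases. JUND holds the palindrome TGACGTCA at 200 bases, which contains TGACG on both strands, and a CGTCA at 86 bases. TGACNTCA occurs in 6.86% of the 34943 windows. Of the 10 members 8 had an entry in the promoter table.

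ATF3 (ENSG00000162772.17, chromosome 1, 212565334 to 212620777, plus strand) showed the largest change of the 10 members in E545K against WT. It is induced by many stresses and by growth signals, and is a target of ATF4 in the integrated stress response. WT libraries held 56.9, 57.3 and 56.4 CPM, E545K libraries 461, 469 and 470 and H1047R libraries 38.9, 50.0 and 50.6. E545K stood far above the other groups, and each H1047R library lay under each WT library. ATF3 rose by 3.04 ± 0.08 in E545K (8.20-fold, adjusted p = 1.33e-12) and fell by 0.29 ± 0.07 in H1047R (adjusted p = 3.85e-03). The fall was −0.17 without H1047R replicate 1, the lowest of the 9 libraries (adjusted p = 1.31e-04).

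MAFF (ENSG00000185022.12, chromosome 22, 38200767 to 38216507, plus strand) was higher in E545K than in both other genotypes. In CPM, the WT libraries gave 23.3, 24.5 and 24.3, those of E545K 34.6, 36.0 and 36.7 and those of H1047R 23.9, 25.5 and 24.7. The E545K libraries lay above all others, while WT and H1047R overlapped. The change was 0.57 ± 0.05 in E545K against WT (1.49-fold, adjusted p = 1.57e-07) and 0.04 ± 0.05 in H1047R against WT (adjusted p = 0.472). H1047R against E545K was −0.53 ± 0.05 (adjusted p = 1.40e-07). MAFF shares 326 of 5611 exon bases (5.81%) with PLA2G6 on the other strand. PLA2G6 was at 12.4 to 16.8 CPM of library totals, without TMM scaling, over the 9 libraries.

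BATF3 (ENSG00000123685.9, chromosome 1, 212686417 to 212699840, minus strand) was scarce in every library. The 3 WT libraries read 0.580, 0.381 and 0.552 CPM, the E545K ones 1.21, 0.944 and 0.718 and the H1047R ones 0.414, 0.196 and 0.338. E545K lay above WT in all libraries, and WT and H1047R overlapped. The rise of 0.93 ± 0.31 in E545K (adjusted p = 0.0293) lost its call when WT replicate 2 (0.76, adjusted p = 0.118) or 3 (0.99, adjusted p = 0.0571) was left out, and likewise E545K replicate 1 (0.71, adjusted p = 0.153) or 2 (0.94, adjusted p = 0.0656). For H1047R the difference from WT of −0.69 ± 0.31 was not called (adjusted p = 0.0722), but was without WT replicate 2 (−0.85, adjusted p = 0.0494) and without H1047R replicate 1 (−0.92, adjusted p = 0.0164). The nearer end of BATF3 lies 65.6 kb beyond the end of ATF3, which is on the plus strand.

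**Figure D2:**
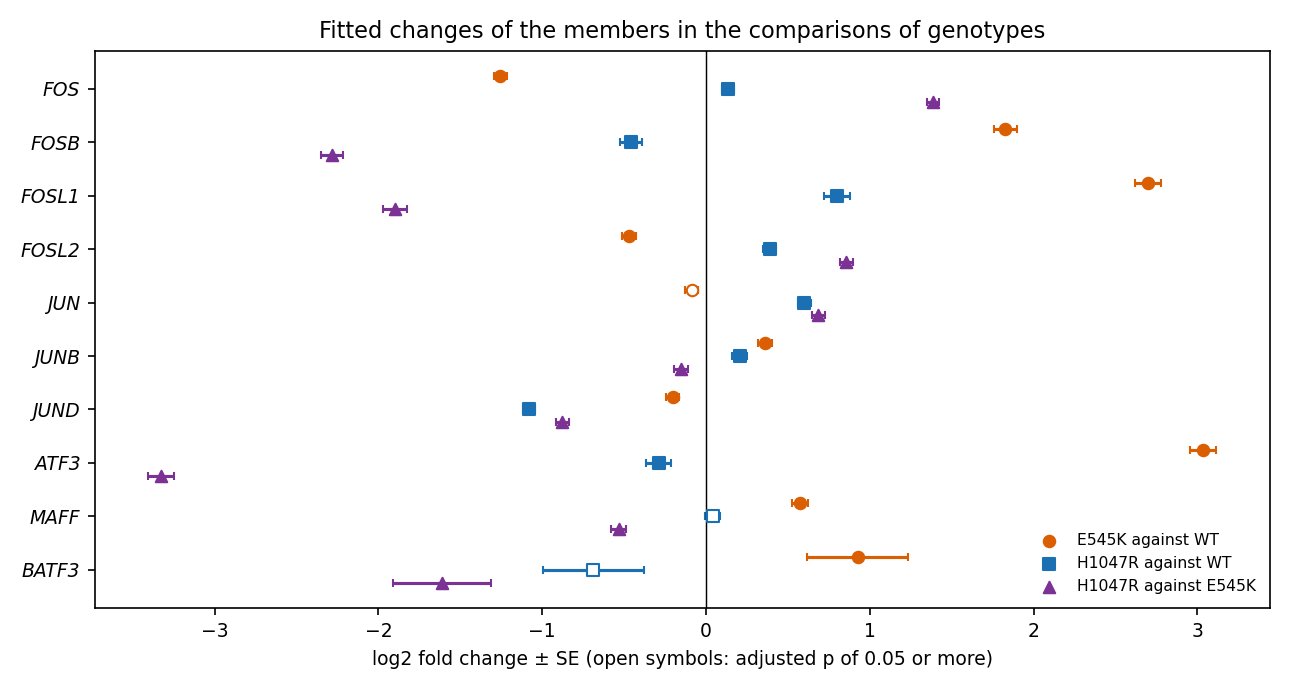
Fitted log2 fold change of each member with its SE in the comparisons of E545K with WT, H1047R with WT and H1047R with E545K. Filled symbols were called at an adjusted p under 0.05 and open ones were not. In the comparisons with WT, ATF3, FOSB, FOS and FOSL2 lie on opposite sides of 0 and were called in both. JUN and BATF3 also lie on opposite sides of 0, but JUN was not called in E545K nor BATF3 in H1047R.

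H1047R was also compared directly with E545K, the pair of lines that shared their medium throughout. All 10 members were called, 3 higher and 7 lower, against 53.2% of all genes (25.9% higher and 27.3% lower) and 71.1% of genes of at least 10 CPM. With library totals 4900 genes were called higher and 9876 lower, against 6841 and 7199 with TMM, and the members' directions were the same. The libraries of the 2 lines did not overlap for any member, as was so for 58.8% of genes. At least 2-fold changes were called for 5 members, against 15.0% of genes and 5.38% of those of at least 10 CPM. ATF3 was lower in H1047R by a log2 fold change of −3.33 ± 0.08 (10.0-fold, adjusted p = 1.93e-13). FOSB was lower by −2.28 ± 0.07 and FOSL1 by −1.90 ± 0.07, while FOS was higher by 1.39 ± 0.04 and FOSL2 by 0.86 ± 0.04. BATF3 differed by −1.61 ± 0.30 (adjusted p = 3.56e-04).

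In the JUN genes the same comparison gave 0.69 ± 0.04 for JUN and −0.88 ± 0.04 for JUND. JUNB differed little, by −0.15 ± 0.04 (adjusted p = 9.06e-03). That call was lost with no filter on low counts (−0.11, adjusted p = 0.0715) and without E545K replicate 3 (−0.13, adjusted p = 0.0680), and the value was −0.29 with library totals.

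The mix of subunits per genotype was described from CPM per kb of exon, which allows genes to be compared with each other. The divisor is the deposited length of all annotated exons, which can exceed that of the transcripts in use, so the order of genes is approximate. The pool was the 8 FOS, JUN and ATF3 genes, whose summed level was 563 CPM per kb in WT, 661 in E545K and 591 in H1047R. FOS genes held 49.2% ± 0.214 of the pool (SD, n = 3) for WT, 39.5% ± 0.383 for E545K and 52.2% ± 0.923 for H1047R. JUN genes held 48.3% ± 0.223, 43.1% ± 0.561 and 45.8% ± 1.16. ATF3 held 2.50% ± 0.0220, 17.5% ± 0.178 and 1.95% ± 0.271. The ATF3 share in each E545K library was above 17% and in no other library above 3%.

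**Figure D3:**
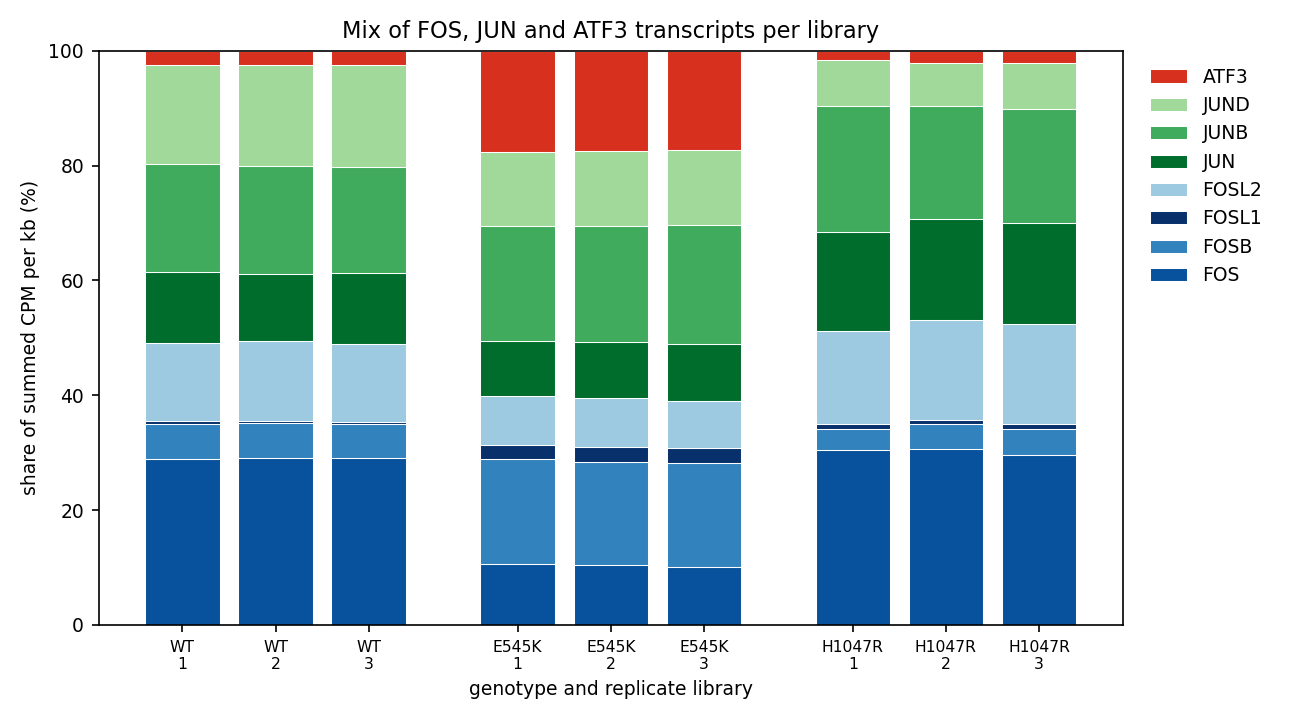
Share of each of the 8 FOS, JUN and ATF3 genes in their summed CPM per kb of exon, one stacked bar per library, adding to 100%. ATF3 takes 17.5% on average in E545K, 2.50% in WT and 1.95% in H1047R, and FOS takes 10.4% in E545K against 29.0% in WT and 30.3% in H1047R.

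Within the FOS family, per kb, FOS was highest in WT and H1047R and FOSB in E545K. Without division by length FOSL2 was highest in WT (43.6%, FOS 41.1%) and H1047R (50.2%, FOS 39.7%), and FOSB was still highest in E545K (50.6%). FOS made up 59.0% ± 0.350 of FOS-family RNA in WT and 57.9% ± 1.53 in H1047R, but 26.2% ± 0.301 in E545K. FOSB made up 12.2% ± 0.297 in WT, 46.0% ± 0.159 in E545K and 7.96% ± 0.850 in H1047R. The ratio of FOSB to FOS per kb was 0.211, 0.210 and 0.200 for the WT libraries, 1.73, 1.75 and 1.78 for those of E545K and 0.118, 0.141 and 0.154 in H1047R. FOSB stood above FOS in each E545K library and in no other. FOSL1 remained a small part of the family even in E545K, at 6.46% ± 0.167 against 0.935% ± 0.0945 in WT and 1.47% ± 0.175 in H1047R. FOSL2 made up 27.9% ± 0.139, 21.4% ± 0.0248 and 32.6% ± 0.833 in WT, E545K and H1047R.

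Within the JUN family the WT pool was spread over JUNB (38.7% ± 0.460), JUND (36.3% ± 0.620) and JUN (25.0% ± 0.519). E545K differed from it modestly, with 47.4% ± 0.220, 30.1% ± 0.219 and 22.5% ± 0.0863. H1047R held 44.7% ± 1.51 JUNB, 17.2% ± 0.268 JUND and 38.1% ± 1.44 JUN. The ratio of JUN to JUND per kb was 0.715, 0.667 and 0.688 for WT, 0.741, 0.750 and 0.754 for E545K and 2.13, 2.30 and 2.21 in H1047R. Per kb, JUN stood above JUND in the H1047R libraries and below it in all others. That order rests on the division by length: without it JUN made up 36.7% of the family in WT and 33.6% in E545K, above JUND at 31.5% and 26.6%. These shares describe the libraries and were not tested.

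The order of levels per kb in WT was FOS, JUNB, JUND, FOSL2, JUN, FOSB, ATF3, MAFF, FOSL1 and BATF3, from 163 down to 0.196 CPM per kb, and no neighbours in that order overlapped. In E545K it was JUNB (135), FOSB (120), ATF3 (115), JUND (85.7), FOS (68.4), JUN (64.1), FOSL2 (55.7), FOSL1 (16.9), MAFF (6.37) and BATF3 (0.373), again without overlap between neighbours. FOS had dropped from the first place to the fifth, and ATF3 had come from the seventh to the third. The order changes without division by length: in CPM, FOSL2 (552) stood above FOS (521) in WT. In E545K, FOSB (666), ATF3 (466) and FOSL2 (399) then stood above JUNB (247). In H1047R, per kb, FOS (179) and JUNB (121) led as in WT. JUN (103) and FOSL2 (101) overlapped there, as did FOSL1 (4.52) and MAFF (4.40), and JUND (46.6) came after FOSL2. In CPM without division by length, FOSL2 (722) stood above FOS (570) in H1047R, and JUN (336) above JUNB (222).

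Genes whose fitted changes against WT were nearest to those of 3 members were sought among 10300 other genes that averaged at least 10 CPM over the 9 libraries. Distance was the straight-line distance between the pairs of log2 fold changes (E545K and H1047R, each against WT), so the points share the WT libraries. FOS was nearest to GADD45B, a growth-arrest and DNA-damage gene (69.1, 27.1 and 78.6 CPM in WT, E545K and H1047R, distance 0.11), then RNF152 (0.16) and KBTBD7 (0.19). FOSL1 was nearest to DUSP4, a MAP kinase phosphatase induced by ERK signalling (4.22, 26.2 and 6.83 CPM, distance 0.13). EGR3 followed at 0.51 and DUSP5, another such phosphatase, at 0.58. ATF3 had no neighbour as near, with NR4A1AS at 0.37, NEDD9 at 0.53 and DUSP5 at 0.60.

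The genomic neighbours of the members were read for comparison, within 250 kb of each gene, a window chosen after the values were seen. Around ATF3 14 other genes were tested, and 2 were called higher and 1 lower in E545K (median log2 fold change −0.09). Around FOSL1 26 were tested, with 5 higher and 9 lower (median −0.13). Around FOSB 11 of 20 were called lower and the median was −0.23, while FOSB itself rose. Over all genes tested 17.7% were called higher and 18.9% lower in E545K against WT. The highest fitted change beside ATF3 was the 0.93 of BATF3, and beside FOSB it was 1.10 in a gene that was not called. Beside FOSL1 it was 4.70, above the 2.70 of FOSL1 itself. In H1047R against WT 0 were higher and 6 lower around ATF3 (median −0.36, itself −0.29), and 4 and 12 around FOSB (−0.27, itself −0.46). Around FOSL2 4 were higher and 1 lower (median 0.91, FOSL2 0.39), and around JUN 6 and 1 (0.33, JUN 0.60). Around FOSL1 5 were higher and 15 lower (median −0.24, FOSL1 0.80), and around JUND 4 and 5 (0.10, JUND −1.08). Over all genes tested 27.4% were called higher and 28.1% lower in H1047R against WT. The part of neighbouring genes in the changes of the members was not tested.

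Other immediate early genes give the setting for FOS and FOSB. Here and below, CPM is given as mean ± SD of 3 libraries and log2 fold changes ± SE. Of 25 such genes 24 were tested, and 20 were called higher and 3 lower in E545K against WT, with a median log2 fold change of 0.78. Over all genes tested the median was 0.00308 in that comparison and 0.02 in both comparisons with H1047R. NR4A3 went from 0.453 ± 0.106 to 11.5 ± 0.263 CPM (4.69 ± 0.13), EGR3 from 5.44 ± 0.252 to 46.0 ± 0.234 (3.08 ± 0.10), and EGR2 from 2.04 ± 0.295 to 14.7 ± 0.777 (2.85 ± 0.11). NR4A genes encode orphan nuclear receptors and EGR genes zinc-finger factors, both induced by growth factors. The 3 that fell beside FOS were GADD45B (−1.35 ± 0.06), the MAP kinase phosphatase DUSP1, from 942 ± 5.45 to 438 ± 7.83 CPM (−1.10 ± 0.04), and ZFP36, an mRNA-decay factor (−0.21 ± 0.05, or −0.11 with library totals). In H1047R against WT 13 were called higher and 3 lower (median 0.19), with EGR4 at 1.47 ± 0.10, EGR2 at 1.23 ± 0.11 and EGR3 at 1.14 ± 0.09. KLF6 (−0.68 ± 0.05), MYC (−0.38 ± 0.05) and PPP1R15A (−0.32 ± 0.04) fell there. In H1047R against E545K 4 were called higher and 16 lower (median −0.65). In E545K against WT, H1047R against WT and H1047R against E545K, 95.8%, 66.7% and 83.3% of these genes were called. In the same order, the shares were 36.6%, 55.5% and 53.2% of all genes tested. They were 55.5%, 73.8% and 71.1% of genes of at least 10 CPM. Shares called are given in this order below.

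**Figure D4:**
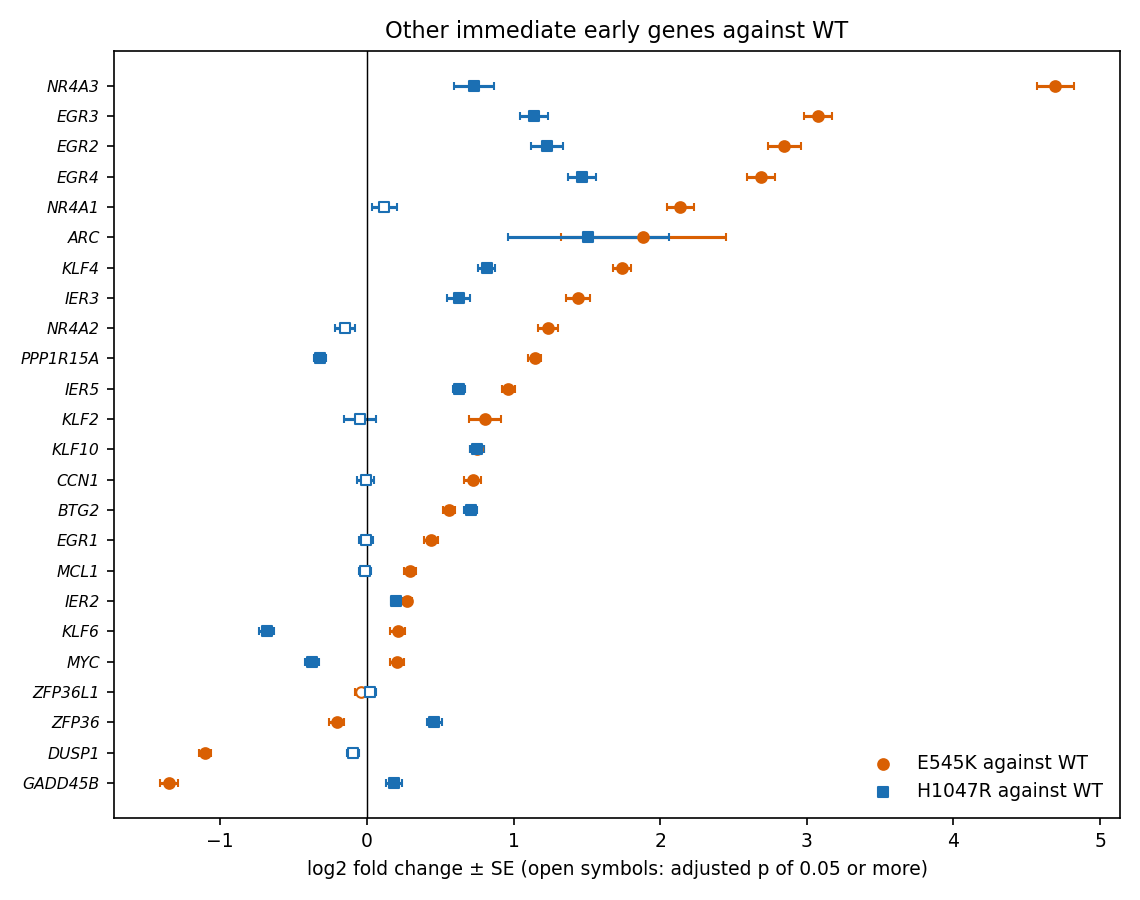
Log2 fold change ± SE of the 24 tested immediate early genes other than the FOS and JUN genes, against WT, in E545K (circles) and H1047R (squares). Open symbols were not called; in E545K 20 rose and 3 (ZFP36, DUSP1 and GADD45B) fell.

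Upstream of AP-1, RNA of kinases and regulators moved in both directions. Of 29 tested, 6 were called higher and 10 lower in E545K against WT (median −0.07), but 11 and 5 with library totals (median 0.02). In H1047R against WT 9 were higher and 12 lower (median −0.09), and in H1047R against E545K 8 and 12, or 6 and 19 with library totals. The shares called were 55.2%, 72.4% and 69.0%, near the 55.5%, 73.8% and 71.1% of genes of at least 10 CPM. MAP2K6, an activator of p38, rose from 0.417 ± 0.0324 CPM in WT to 6.05 ± 0.645 in E545K (3.85 ± 0.15) and 3.21 ± 0.454 in H1047R (2.93 ± 0.15). RPS6KA2, which encodes the ribosomal S6 kinase RSK3 downstream of ERK, rose from 3.74 ± 0.343 to 6.59 ± 0.518 (0.81 ± 0.08) and 28.1 ± 1.72 (2.91 ± 0.08). SRF, the serum response factor that drives FOS transcription, fell from 92.3 ± 1.96 to 68.1 ± 2.77 in E545K (−0.44 ± 0.04) and 43.1 ± 0.615 in H1047R (−1.10 ± 0.04). FBXW7, which marks JUN protein for destruction, rose by 0.47 ± 0.04 and 1.08 ± 0.04, and the ERK kinase gene MAPK3 fell (−0.63 ± 0.04 and −1.13 ± 0.04).

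Other bZIP factors, from which AP-1 proteins can draw further partners, were also divided. Of 42 genes 39 were tested, with 14 higher and 10 lower in E545K and 12 higher and 16 lower in H1047R, both against WT (medians 0.04 and −0.07). In H1047R against E545K 14 were higher and 15 lower, or 9 and 21 with library totals. The shares called were 61.5%, 71.8% and 74.4%, against 55.5%, 73.8% and 71.1% of genes of at least 10 CPM. TEF, a PAR-domain bZIP factor, rose from 1.33 ± 0.167 CPM in WT to 4.67 ± 0.278 in E545K (1.79 ± 0.11) and 6.57 ± 0.364 in H1047R (2.29 ± 0.10). MAF, a large MAF factor, rose from 22.9 ± 0.147 CPM to 34.4 ± 0.844 in E545K (0.59 ± 0.04) and 57.5 ± 1.24 in H1047R (1.33 ± 0.04). CREB5 rose in E545K (1.85 ± 0.16), and JDP2, a JUN-binding repressor, fell there from 19.6 ± 0.808 to 13.8 ± 0.653 CPM (−0.52 ± 0.07). BACH2 fell in both lines, with −1.94 ± 0.12 in E545K and −1.67 ± 0.11 in H1047R.

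Integrated stress response genes, in whose setting ATF3 is often seen, were called higher in 11 and lower in 1 of 14 tested in E545K (median 0.62). CHAC1 (2.17 ± 0.18), the cystine transporter SLC7A11 (1.23 ± 0.06) and PPP1R15A (1.15 ± 0.04), which is also among the immediate early genes, rose, and DDIT4 fell from 508 ± 2.63 to 174 ± 5.09 CPM (−1.54 ± 0.04). In H1047R, where ATF3 was below WT, 7 were higher and 3 lower (median 0.23), and against E545K 3 were higher and 9 lower. CHAC1 was higher there too (2.22 ± 0.17), beside VLDLR (2.85 ± 0.09) and SESN2 (0.82 ± 0.05). Of 12 heat shock genes tested, 7 were higher and 1 lower in E545K (median 0.33) and 7 higher and 3 lower in H1047R (median 0.17), with 4 higher and 7 lower in H1047R against E545K. The shares called were 85.7%, 71.4% and 85.7% of the stress response genes and 66.7%, 83.3% and 91.7% of the heat shock genes. They were 36.6%, 55.5% and 53.2% of all genes, and 55.5%, 73.8% and 71.1% of those of at least 10 CPM. The share of stress response genes called in H1047R against WT is thus near the background of genes of at least 10 CPM. HSPH1 rose in E545K (0.59 ± 0.04), as did HSPA6 (0.86 ± 0.20) from a mean of 0.325 to 0.587 CPM, and HSPB1 fell (−0.34 ± 0.05). All of these changed further in H1047R against WT, HSPH1 by 0.94 ± 0.04, HSPA6 by 2.07 ± 0.19 and HSPB1 by −0.98 ± 0.05.

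Genes described elsewhere as AP-1 targets moved in both directions. Of 21 listed 16 were tested, and 9 were higher and 3 lower in E545K (median 0.36) and 9 higher and 6 lower in H1047R (median 0.32). The shares called were 75%, 93.8% and 87.5%, against 36.6%, 55.5% and 53.2% of all genes. Of genes of at least 10 CPM, 55.5%, 73.8% and 71.1% were called. HBEGF, an EGFR ligand, rose from 3.37 ± 0.208 to 15.3 ± 0.500 CPM in E545K (2.18 ± 0.09). Cyclin D1 (CCND1) rose from 66.6 ± 2.83 to 133 ± 2.62 CPM in E545K (0.99 ± 0.07) and 131 ± 17.3 in H1047R (0.98 ± 0.07). TIMP1, an inhibitor of matrix proteases, fell from 199 ± 4.02 to 103 ± 3.89 (−0.95 ± 0.08) and 73.6 ± 12.2 (−1.44 ± 0.08). The cornified-envelope genes IVL and TGM1 rose in E545K (0.99 ± 0.16 and 0.68 ± 0.08) and in H1047R (1.45 ± 0.16 and 0.99 ± 0.08), and IL1A fell in H1047R (−1.07 ± 0.07). SPRR1B, another cornified-envelope gene, fell in both (−1.24 ± 0.10 in E545K and −0.34 ± 0.09 in H1047R). In H1047R against E545K 6 were higher and 8 lower, or 3 and 9 with library totals, with IL1A at −2.02 ± 0.07 and SPRR1B at 0.90 ± 0.10.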

How the data were processed

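RNA of 9 libraries (3 per genotype, grouped by the labels) was sequenced as paired 150 bp reads after removal of ribosomal RNA, per the labels' protocols. Gene counts and exon lengths were deposited as made by featureCounts 2.0.0 on hg38 with GENCODE 32, per the file headers. Per the file headers, strand was not used, each mate of a pair was counted by itself, and a read over several genes was counted for each, so overlapping genes such as JUNB and HOOK2 share reads. Per the submitters' processing notes, STAR, SAMtools 1.5, FastQC, cutadapt and Trim Galore 0.4.0 were also used. The E545K libraries were taken as the columns of the table that their description names.

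Identifiers were matched without version to GENCODE 44 symbols (60295 matched, 314 did not). Counts were tested with edgeR 4.0.16 in R 4.3.3: filterByExpr (minimum count 10), TMM scaling, 1 quasi-likelihood model over 9 libraries and Benjamini-Hochberg adjustment over 26412 genes. An SE is the log2 fold change divided by the square root of the F statistic, and errors of levels and shares are SDs of 3 libraries. The procedure was tested on simulated data. The simulation gave all libraries the same spread, so the unequal spread of the genotypes was not covered by it. Between replicates the chi-square per degree of freedom of the counts was 3.52 to 6.65 in WT and E545K and 79.8 to 192 in H1047R, so no library was a copy of another.

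The members, gene lists and tests were chosen with earlier results of these data known. The text names all 10 members and, from each list, up to 3 rises and 3 falls that were called whose higher group averaged at least 1 CPM. HSPA6, IVL, TGM1 and MAF in E545K, SPRR1B in H1047R against WT, and KRT8 were named outside it, after their values were seen. Some results under this rule are not reported here. Alternatives were library totals, upper-quartile scaling, DESeq2 1.42.0, no filter, a filter of 1 CPM in 3 libraries, only the groups compared, a replicate block and leaving out each library. Promoters came from RefSeq (GRCh38.p14).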

Additional observations from a re-analysis of the deposited data

Results flagged for a closer look

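Members called in opposite directions against WT in the knock-in lines were FOS, FOSB, FOSL2 and ATF3, and for each the direct test of H1047R against E545K was also called. The rise of FOS in H1047R against WT was small (0.13), and its call was lost with WT and H1047R alone fitted (0.10, edgeR adjusted p = 0.0588). The log2 difference of H1047R from E545K was 1.39 for FOS, −2.28 for FOSB, 0.86 for FOSL2 and −3.33 for ATF3. In every library FOS and FOSL2 lay above all WT libraries in H1047R and below them in E545K, and FOSB and ATF3 lay the other way round. Both lines are set against the same WT libraries, and the H1047R libraries stand in a table of their own, and the effect of that table cannot be told apart from the genotype.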

How the results depend on the processing

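Of 477 values of members under alternatives, 462 kept their direction and side of the threshold, 7 lost the call, 6 gained it and 2 changed sign, both with library totals and neither called: JUN in E545K against WT (0.0065) and MAFF in H1047R against WT (−0.00057). Library totals shifted the median of all genes from 0.02 to −0.12 in H1047R against E545K. Genes called at least 2-fold fell from 1875, 4603 and 3956 (E545K against WT, H1047R against WT and H1047R against E545K) to 987, 2212 and 1743 with the filter of 1 CPM in 3 libraries, which tests 16830 genes, and BATF3 was not tested there. Leaving out 1 library at a time gave 7979 to 11251, 13077 to 15791 and 12452 to 15295 genes called, and 8 to 10, 8 to 9 and 9 to 10 members called. Without division by exon length, FOS genes held 65.7%, 54.7% and 67.4% of the pool in WT, E545K and H1047R, JUN genes 31.4%, 25.8% and 30.4%, and ATF3 2.95% in WT and 19.4% in E545K. Between genotypes, deviations of same-numbered libraries correlated at −0.0348 to 0.0227 and those of different-numbered ones at −0.0245 to 0.0418. No effect shared by replicate number was visible, which does not show whether same-numbered libraries were handled together. A fit with the replicate block called 9441, 14394 and 13731 genes and 9, 9 and 10 members, with BATF3 newly called in H1047R against WT (−0.70, adjusted p = 0.0452). IVL in H1047R against E545K was not called with library totals (0.31) or without E545K replicate 1 or 3 or H1047R replicate 1 or 2 (0.28 to 0.44). Other limits are the pooled spread, which is narrower than that within H1047R and wider than that within WT and E545K, the few counts of BATF3, and the unstranded counting of JUNB and MAFF.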
